A study of Mus musculus with 3 samples.

Results

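The miRNA profile of the mouse retina at postnatal day 7 (P7) was compared with that at postnatal day 1 (P1), miRNA by miRNA. The retinas came from C57BL/6 mice that had received no treatment, and the retinas of 5 eyes were pooled into 1 small RNA library per age. A further library from older mice in the same series was not used here. The libraries held 11426320 miRNA reads at P1 and 12759995 at P7. The members are the 655 miRNAs, of 1915 listed, with a mean of at least 1 RPM (reads scaled to a library total of 1000000 miRNA reads) over both libraries, a level that stands for 11.4 reads at P1 and 12.8 at P7. They hold 99.98% and 99.99% of the reads. Another 594 miRNAs had reads but fell below this level, and 666 had none in either library. At the border, miR-26a-1-3p entered with a mean of 1.005 RPM and miR-1187 with 1.03 RPM, while miR-3105-3p with 0.99 RPM and miR-21b with 0.955 RPM did not. Every member had reads at both ages. With 1 pooled library per age there is no replicate check on any difference below, so that no p-value is given, and an interval takes in counting error alone, because no molecular identifiers were counted and PCR copies of 1 molecule enter as separate reads. Pooling also mixes cells, and in such bulk RNA fewer cells of a type and less RNA per cell cannot be told apart.

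MiRNAs are short RNAs that are cut from hairpin precursors, are loaded into an Argonaute protein and repress messenger RNAs that pair with their seed, bases 2 to 8. In the newborn mouse retina progenitors are still dividing, and in the first postnatal week the last rods, bipolar cells and Müller glia are born while blood vessels spread from the optic nerve over the inner surface. The sensory cluster, made up of miR-182, miR-96 and miR-183, is a hallmark of sensory cells and is abundant in photoreceptors, miR-9 and miR-124 are found in neural tissue, the miR-17-92 cluster and its paralogs are known from dividing cells, and the let-7 family is known for rising as cells differentiate.

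The sequences below carry the main differences. They are mature forms from RefSeq (GRCm38.p6), 5′ to 3′, with the seed in capitals, and were found for 545 of the 655 members. The first set holds several of the largest rises, over all members or among the abundant ones:
miR-182-5p: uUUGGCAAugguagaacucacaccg
miR-96-5p: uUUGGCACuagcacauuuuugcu
miR-183-5p: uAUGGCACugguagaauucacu
miR-378c: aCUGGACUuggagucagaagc
miR-378d: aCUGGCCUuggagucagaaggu
miR-378b: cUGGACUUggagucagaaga
miR-1298-5p: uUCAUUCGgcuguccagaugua
miR-126a-3p: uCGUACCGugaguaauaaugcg
miR-99a-5p: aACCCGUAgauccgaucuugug
The second set holds several of the steepest falls over all members, the miR-216 and miR-217 forms, and the abundant miR-218-5p, miR-92a-3p and miR-7a-5p, which were lower with means above 10000 RPM:
miR-1247-5p: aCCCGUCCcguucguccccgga
miR-1247-3p: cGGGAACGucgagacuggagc
miR-504-5p: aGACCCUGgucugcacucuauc
miR-216a-5p: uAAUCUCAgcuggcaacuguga
miR-216b-5p: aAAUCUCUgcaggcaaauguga
miR-217-5p: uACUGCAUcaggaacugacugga
miR-551b-3p: gCGACCCAuacuugguuucag
miR-450b-5p: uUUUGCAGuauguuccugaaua
miR-218-5p: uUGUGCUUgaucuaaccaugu
miR-92a-3p: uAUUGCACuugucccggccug
miR-7a-5p: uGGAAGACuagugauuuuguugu
The third set shows groups with 1 shared seed, in RPM the first lower throughout (miR-17), the second with calls in both directions (miR-16) and the third spread around no change (let-7):
miR-17-5p: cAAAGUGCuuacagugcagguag
miR-20a-5p: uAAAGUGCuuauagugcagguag
miR-93-5p: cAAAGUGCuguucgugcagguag
miR-106a-5p: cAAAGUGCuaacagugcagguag
miR-15b-5p: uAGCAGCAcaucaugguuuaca
miR-16-5p: uAGCAGCAcguaaauauuggcg
miR-195a-5p: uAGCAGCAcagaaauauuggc
let-7b-5p: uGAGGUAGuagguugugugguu
let-7f-5p: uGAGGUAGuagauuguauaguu
let-7i-5p: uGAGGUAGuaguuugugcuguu

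The retinal identity of both libraries was checked first. MiR-9-5p, a miRNA of neural progenitors and neurons, took 14.4% of the reads at P1 and 12.6% at P7. The 6 mature forms of the sensory cluster took 7.85% and 30.6%. MiR-124-3p, a neuronal miRNA, was at 1544 RPM at P1 and 2055 RPM at P7. Markers of other tissues differed in level. The sums that follow are over all listed miRNAs, members or not. The pigment epithelium miRNAs miR-204 and miR-211, of which miR-204-5p is the main form, summed to 15315 RPM at P1 and 7261 RPM at P7, above miR-124. The others were lower. The 7 erythroid miRNAs summed to 279 RPM at P1 and 221 RPM at P7, with the equal reads of miR-486a-5p and miR-486b-5p both counted. The 11 striated muscle miRNAs summed to 135 RPM and 91.1 RPM. The 16 known from lens and surface epithelium summed to 402 RPM and 276 RPM, and the only liver member, miR-122-5p, was at 5.78 and 2.27 RPM. None of the 12 listed miRNAs of the pluripotency cluster was a member, and 3 of them had any read.

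In RPM, most miRNAs were lower at P7 than at P1. The log2 change of RPM + 1 had a median of -0.88 over the 655 members, with quartiles at -1.40 and -0.39 and a range from -4.40 to 2.34, and 574 members (87.6%) lay below 0. A change beyond 2-fold on this scale, where the added 1 RPM shrinks changes of rare miRNAs, is called lower or higher here. By this rule 295 members (45.0%) were lower at P7 and 19 (2.90%) were higher. The counting interval of the RPM ratio left out no change for 562 members, all 314 called ones among them.

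RPM values are shares of 1 total, and the total was distributed differently at the 2 ages. Of all reads, 50% lay in 8 miRNAs at P1 and in 5 at P7, and 90% of the reads lay in 61 and in 35. The 10 most abundant miRNAs of each library, of which 8 were shared, held 57.8% of the reads at P1 and 69.2% at P7. All reads outside the sensory cluster went from 92.2% to 69.4% of the total, a log2 change of -0.41. Median-of-ratios scaling, which sets the median change of the members to 0, gave size factors of 1.35 for P1 and 0.743 for P7 and raised the P7 values against P1 by 1.02 on the log2 scale. After it 72 members (11.0%) were lower and 61 (9.31%) higher. Falls were 93.9% of the calls in RPM and 54.1% after the scaling. All 19 members higher in RPM were also higher after the scaling, and the 72 lower ones were also lower in RPM. Another 223 went from lower to within 2-fold and 42 from within 2-fold to higher, and none changed from one direction to the other. Which scaling reflects the amount of RNA per cell cannot be told apart without a standard added to the samples, so both are given below, RPM first.

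**Figure D1:**
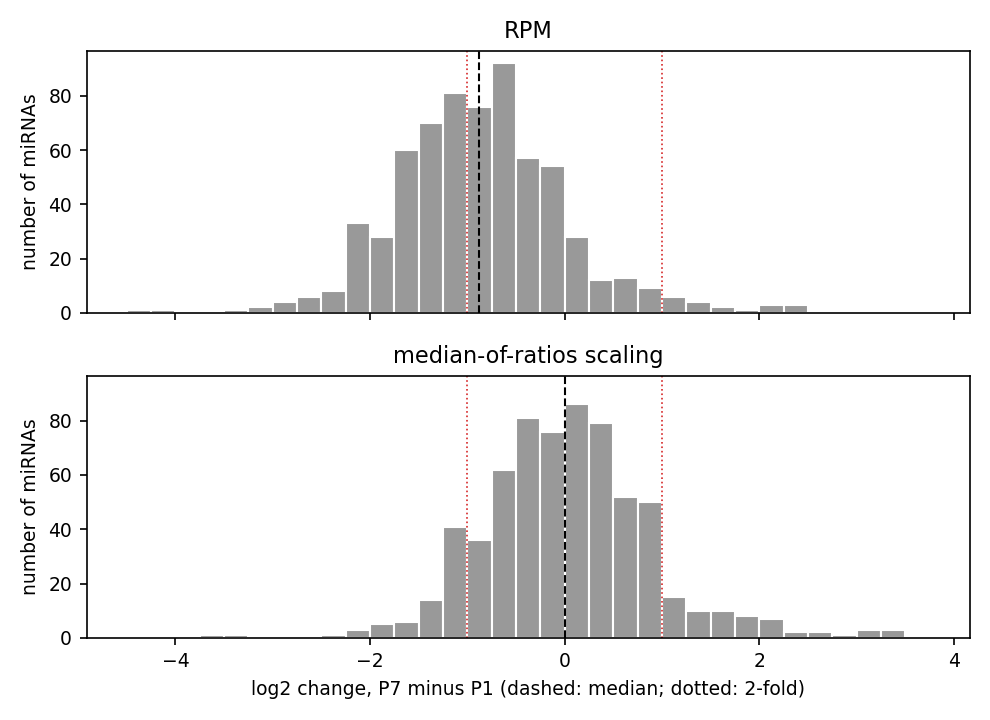
Number of miRNAs (vertical axis, 655 in all) by log2 change from P1 to P7 (horizontal axis), in RPM + 1 (top) and after median-of-ratios scaling (bottom). The dashed line, the median, is at -0.88 in the upper panel and at 0 in the lower, while dotted lines mark 2-fold.

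The shift differed by abundance. Among 20 members with a mean above 10000 RPM the median change was -0.17, with 5 lower and 4 higher. Among the 61 members of 1000 to 10000 RPM it was -0.68, with 19 lower and 2 higher. It was -1.03 for the 128 members of 100 to 1000 RPM, -1.12 for the 217 members of 10 to 100 RPM and -0.75 for the 229 rarest, where the added 1 RPM weighs most. After median-of-ratios scaling, 13 of the 209 members of at least 100 RPM were lower and 25 higher, against 92 and 9 in RPM.

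**Figure D2:**
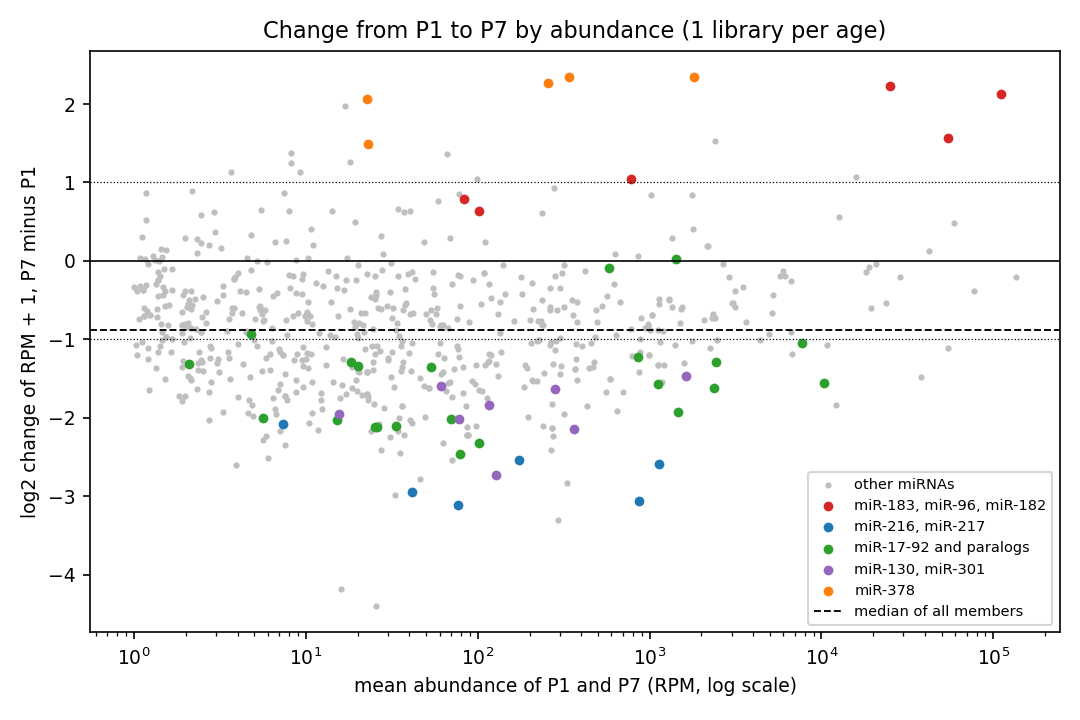
Log2 change of RPM + 1 from P1 to P7 (vertical axis) against the mean RPM of both libraries (horizontal axis, log scale), 1 point per miRNA. The forms of the sensory cluster (red) and the miR-378 forms lie above 0, the miR-216, miR-217, miR-130 and miR-301 forms below -1, and all but 3 forms of the miR-17-92 clusters below -1. Dotted lines mark 2-fold and the dashed line the median of -0.88.

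The sensory cluster was the largest gain in reads. Its hairpins lie on the minus strand of chromosome 6 (GRCm38, chr6:30165918-30169737), outside any annotated gene. MiR-182-5p had 471813 reads at P1 and 2311935 at P7, or 41292 and 181186 RPM, and moved from the sixth place to the first. Its log2 change was 2.13, or 3.15 after median-of-ratios scaling. MiR-96-5p had 101259 and 529240 reads, or 8862 and 41476 RPM, a log2 change of 2.23 (3.24 scaled). MiR-183-5p had 316510 and 1042897 reads, or 27700.1 and 81732 RPM, a log2 change of 1.56 (2.58 scaled). All 3 guide arms were thus higher at P7 in both scalings, miR-183-5p by less than the other two. The passenger arms changed less. MiR-182-3p, at 505 and 1045 RPM, was called higher with 1.05, while miR-183-3p with 0.79 and miR-96-3p with 0.64 were within 2-fold in RPM and higher after scaling. Over the 6 forms, 4 were called higher in RPM, where 2.90% of all members were, and the summed level rose 3.89-fold, from 78499 to 305669 RPM.

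**Figure D3:**
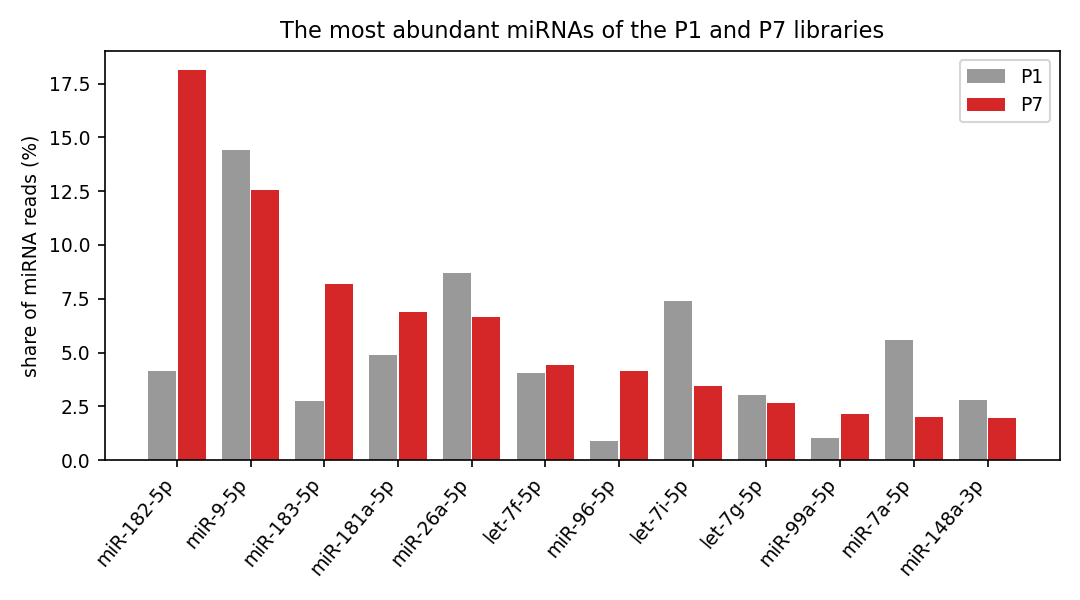
Share of all miRNA reads (vertical axis, percent) of the 12 miRNAs that were among the 10 most abundant at P1 (grey bars) or at P7 (red bars), ordered by their share at P7. MiR-182-5p, miR-183-5p, miR-96-5p and miR-99a-5p show the largest relative gains, and let-7i-5p and miR-7a-5p the largest relative losses.

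The miR-378 group, known from mitochondrial and lipid metabolism, had the steepest rises. MiR-378a-3p had 6803 reads at P1 and 38514 at P7, or 595 and 3018 RPM, a log2 change of 2.34 (3.36 scaled). MiR-378c had 1277 and 7280 reads with a change of 2.34, and miR-378d 1003 and 5453 reads with 2.27. The less abundant miR-378a-5p changed by 2.06 and miR-378b by 1.49. The forms miR-378b, miR-378c and miR-378d share most of their bases, as printed above, so reads of 1 form may have been assigned to another, and their changes are not separate measurements. No sequence was found for miR-378a-3p. Its overlap with these forms was therefore not tested, and its rise may not be separate from theirs. MiR-378b, miR-378c and miR-378d have hairpins on chromosomes 11, 14 and 10, each outside annotated genes.

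Of the 22 members listed for blood vessels, 4 were higher and 2 lower in RPM, against 2.90% and 45.0% of all members, and the 4 came from 2 hairpins. MiR-126a-3p, the endothelial miRNA whose hairpin overlaps an annotated exon of the endothelial gene Egfl7 (chr2:26591357-26591429), had 13994 reads at P1 and 45262 at P7, or 1225 and 3547 RPM. Its log2 change was 1.53 (2.55 scaled). The mural cell miRNA miR-143-3p went from 189.6 to 363 RPM, which is within 2-fold at 0.93. The median of the list was -0.38, above the median of -0.88 over all members, and after scaling 5 were higher and none lower. The higher ones were both arms of miR-126a and both arms of miR-145a, the latter at no more than 13.1 RPM, and the abundant members miR-24-3p and miR-27b-3p lay at -0.72 and -0.59. MiR-210-3p, the hypoxia miRNA, went from 1546 to 754 RPM, a change of -1.03 that was -0.018 after scaling. Of 10 microglial and leukocyte members 1 was lower and none higher in RPM, against 45.0% and 2.90% of all members, and 4 were higher after scaling, against 9.31%. MiR-146a-5p, an inflammation-associated miRNA, was at 55.3 and 101 RPM (0.86), the abundant miR-21a-5p at 6526 and 5707 RPM (-0.19). The lower one was miR-155-3p, on 24 and 4 reads (-1.24), and miR-155-5p was at -0.84. MiR-142a-3p and miR-142a-5p were at 0.26 and 0.24, and miR-150-5p was at 0.87 on 6 and 23 reads. No form of miR-223 was a member.

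The remaining rises were scattered. MiR-99a-5p, whose hairpin lies in an intron of the long noncoding RNA gene Mir99ahg on chromosome 16 (chr16:77598936-77599000), had 116305 and 273596 reads, or 10179 and 21442 RPM, a log2 change of 1.07. Its cluster neighbour let-7c-1-3p changed by 1.37 on 47 and 156 reads. MiR-1298-5p, inside an intron of the serotonin receptor gene Htr2c (chrX:147064905-147065002), had 72 and 353 reads and a change of 1.97, with a counting interval of the log2 RPM ratio from 1.77 to 2.52. MiR-195a-5p of the miR-16 seed group changed by 1.05. With miR-129-2-3p (1.26) and miR-344d-3p (1.25), which were picked after their values were seen, as were miR-126a-5p, miR-145a-5p and miR-145a-3p, this completes the 19 higher members.

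The steepest falls were in miR-1247. MiR-1247-5p had 568 reads at P1 and 18 at P7, or 49.7 and 1.41 RPM, a log2 change of -4.40 (-3.58 scaled). MiR-1247-3p had 358 and 10 reads, or 31.3 and 0.780 RPM, with -4.18. The counting interval of the log2 RPM ratio, without the added 1 RPM, ran from -5.90 to -4.47 for the 5p arm. It ran from -6.39 to -4.43 for the 3p arm. The changes of RPM + 1 lie outside these intervals because the added 1 RPM shrinks them. The few reads at P7 left the size of the fall loose but not its direction. The hairpin overlaps an exon of Dio3os, at the far end of the imprinted Dlk1-Dio3 region (chr12:110278048-110278129). MiR-504-5p, in an intron of Fgf13 (chrX:59097658-59097736), had 6079 reads at P1 and 677 at P7, or 532 and 53.1 RPM. Its log2 change was -3.30, the steepest among members with a mean of at least 100 RPM. The log2 change was -2.98 for miR-551b-3p, -2.83 for miR-6540-5p and -2.78 for miR-450b-5p.

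All 6 members of miR-216a, miR-216b and miR-217, which are best known from pancreatic acinar cells, were lower in both scalings. Of all members, 45.0% were lower in RPM and 11.0% after scaling. The 6 are the 5p and 3p arms of each hairpin. MiR-216b-5p had 17799 reads at P1 and 2385 at P7, or 1558 and 187 RPM, a log2 change of -3.05 (-2.04 scaled). MiR-217-5p had 22139 and 4095 reads, or 1938 and 321 RPM, with -2.59 (-1.57 scaled). MiR-216a-5p went from 296 to 50.2 RPM, with -2.54. The 3p arms moved alike, from -2.08 for miR-217-3p to -3.11 for miR-216a-3p. The summed level was 4017 RPM at P1 and 584 RPM at P7, and the median of -2.77 was the lowest of the lists examined. MiR-216a and miR-217 lie in introns of the noncoding gene Gm12082 (chr11:28757012-28763835), and miR-216b lies upstream at chr11:28746191-28746276, all on the plus strand. Their seeds, printed above, differ.

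The miR-17-92 cluster (chr14:115043671-115044506, host gene Mir17hg) and its paralogs, known from proliferating progenitors and tumours, were lower at P7 in 19 of 22 members, against 45.0% of all members. The median was -1.56 in RPM and -0.58 after scaling, where 8 members were lower and 1 higher. The summed level went from 40783 to 16708 RPM. MiR-92a-3p, the most abundant, had 176979 and 67301 reads, or 15489 and 5274 RPM, with -1.55 (-0.54 scaled). MiR-20a-5p went from 3561 to 1155 RPM (-1.62), miR-93-5p from 3444 to 1406 RPM (-1.29) and miR-25-3p from 10373 to 5014 RPM (-1.05). Their changes after scaling were -0.61, -0.28 and -0.03, in that order. The largest changes were those of miR-25-5p with -2.46 (-1.47 scaled) and miR-18a-5p with -2.31 (-1.31 scaled), the latter from 1951 to 428 reads. The members with the miR-19 seed stood apart from their neighbours on the same primary transcript. MiR-19b-3p was at 1409 and 1434 RPM, a change of 0.025, and miR-19a-3p at 599 and 564 RPM, a change of -0.09, and both were picked after their values were seen. MiR-19b-3p can also come from the X-linked paralog. Within the X-linked paralog cluster (chrX:52741693-52742567) all 4 members with a sequence and 1 locus lay between -2.11 and -2.00. MiR-363-5p, the other arm of miR-363-3p in that cluster, had no sequence and was at -1.31 on 39 and 10 reads. In the miR-106b-25 cluster inside Mcm7 (chr5:138165321-138165818), a gene of the DNA replication helicase, all 6 lay between -2.46 and -1.05. After scaling 1 of the 6 was lower, and their median was -0.30.

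By seed, the 545 members with a sequence formed 13 groups of at least 3 members. The 6 members with the seed AAAGUGC (miR-17, miR-20a, miR-20b, miR-93, miR-106a and miR-106b, 5p arms) were all lower, with a median of -1.77 and a summed level of 10584 RPM at P1 and 3699 RPM at P7. The 3 members with AGUGCAA (miR-130a-3p, miR-130b-3p and miR-301a-3p) were all lower too, between -1.83 and -1.59. These calls are in RPM, where 45.0% of all members were lower. After scaling, where 11.0% of all members were lower, 2 of the 6 members of the first group were lower and none of the second. No seed group was higher throughout. The seed AGCAGCA held calls in both directions, with miR-195a-5p at 1.05 and miR-15b-5p at -1.01, while miR-16-5p, its most abundant member, was at 3911 and 3114 RPM (-0.33). After median-of-ratios scaling the group held no lower member and 2 higher ones.

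Let-7 miRNAs, which share the seed GAGGUAG and are found in most differentiated cells, lay on both sides of no change in RPM. Let-7i-5p had 845314 reads at P1 and 438365 at P7, or 73979.6 and 34355 RPM, a change of -1.11 that became -0.09 after scaling. Let-7f-5p had 461870 and 565071 reads, or 40422 and 44285 RPM, with 0.13. Let-7a-5p was at -0.60, let-7g-5p at -0.20 and let-7b-5p at 0.84. The 10 members with this seed summed to 186066 RPM at P1 and 141181 RPM at P7. Among all 22 let-7 and miR-98 members 1 was lower and 1 higher in RPM, against 45.0% and 2.90% of all members. After scaling 20 of the 22 lay above 0, none was lower and 5 were higher, against 11.0% and 9.31%.

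Against the 45.0% of all members lower in RPM and the 11.0% lower after scaling, the miR-130 and miR-301 family, the miR-322 and miR-503 cluster and the Sfmbt2 cluster families had the following counts. All 8 members of the former were lower, with a median of -1.89 (-0.92 scaled, 4 lower). Its most abundant member, miR-130b-5p, went from 2393 to 868 RPM (-1.46), and the largest change was in miR-301b-5p, from 222 to 32.8 RPM (-2.72). MiR-130b and miR-301b lie in an intron of 2610318N02Rik (chr16:17124061-17124496). Of the 11 members around miR-322 and miR-503 on the X chromosome, known from cell cycle exit in muscle cells, 8 were lower, with a median of -1.57 (-0.57 scaled, 3 lower). The log2 change was -2.53 for miR-503-5p, -1.67 for miR-450a-5p and -1.57 for miR-542-3p. The 51 members named as families of the Sfmbt2 cluster, a rodent-specific array of near-identical hairpins, were lower in 49 cases, with a median of -1.72 (-0.87 scaled, 19 lower). They include miR-467a-5p with 9936 and 3906 reads and miR-669a-5p and miR-669p-5p, which carry the same 5031 and 1272 reads. Several other members of these families also carry equal counts, so these 51 are not all separate measurements. Over all 655 members, equal counts at both ages occur in 21 sets covering 44 members. Some of those sets pair unrelated miRNAs with few reads, such as let-7k and miR-5620-5p with 18 and 15. MiR-466f-5p had the largest change in the list, -2.28.

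**Figure D4:**
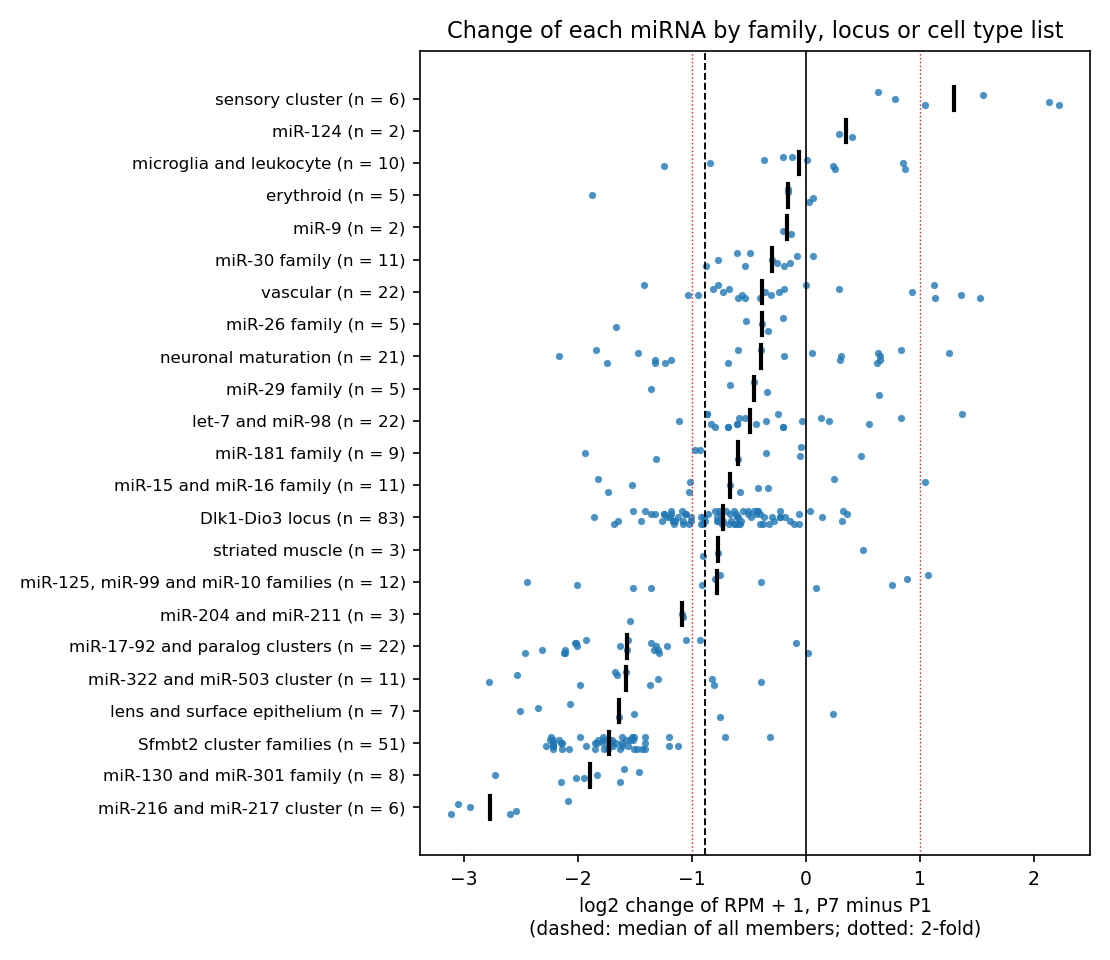
Log2 change of RPM + 1 from P1 to P7 (horizontal axis) of each miRNA in the family, locus and cell type lists with at least 2 members, ordered by median (black bars). The sensory cluster has the highest median, 1.30, and the miR-216 and miR-217 cluster the lowest, -2.77; the dashed line is the median of all members and dotted lines mark 2-fold.

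By position, 30 clusters of hairpins within 10 kb of each other on 1 strand held at least 3 members with a single locus, 191 members in all. Members without a sequence were not placed in a cluster. In 8 clusters every member was lower in RPM and in none was every member higher. Beside those of miR-216a, miR-106a, miR-106b and miR-130b they were miR-34b and miR-34c (median -1.67), miR-15b and miR-16-2 in an intron of Smc4 (-1.53), miR-296 and miR-298 (-1.35) and miR-224 and miR-452 in introns of the GABA receptor gene Gabre (-1.31). MiR-224-5p went from 455 to 96.1 RPM. After scaling, every placed member was lower in the miR-216a cluster and in the X-linked miR-106a cluster. Every placed member was higher after scaling in the sensory cluster and in the cluster of miR-99a and let-7c-1. In the cluster of miR-132 and miR-212, with a median of 0.63 in RPM, 3 of 4 members were higher after scaling. MiR-363-5p, the other arm of a hairpin in the X-linked cluster, had no sequence and was within 2-fold after scaling, at -0.68. The imprinted Dlk1-Dio3 locus on chromosome 12 (hairpin clusters between positions 109563692 and 109747960) had 83 members in the list, which leaves out miR-1247 at the far end of the region, described above. Their median was -0.73, near the -0.88 of all members. In RPM 28 were lower and none higher, against 45.0% and 2.90% of all members, and after scaling none was lower and 3 were higher, against 11.0% and 9.31%. Its abundant miRNAs were miR-127-3p, at 6313 and 3985 RPM (-0.66), and miR-434-5p (-0.78), miR-370-3p (-1.002) and miR-381-3p (-0.67), and the largest change in the list was in miR-431-5p (-1.85). MiR-370-3p lies at the edge of the 2-fold rule, and its change was 0.014 after scaling.

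The list of neuronal maturation was mixed, and its most abundant members, miR-7a-5p and miR-218-5p, were lower in RPM and within 2-fold after scaling. MiR-7a-5p, known from neuroendocrine cells, had 638481 reads at P1 and 257027 at P7, or 55878 and 20143 RPM, with -1.47 (-0.45 scaled). MiR-218-5p, encoded in introns of the axon guidance genes Slit2 and Slit3, had 218223 and 68304 reads, or 19098 and 5353 RPM, with -1.83 (-0.82 scaled). MiR-128-3p went from 9375 to 4134 RPM (-1.18), and miR-129-5p from 1258 to 2255 RPM (0.84). Of the 21 members listed for neuronal maturation 8 were lower and 1 higher in RPM, against 45.0% and 2.90% of all members, with a median of -0.39 that lies above the -0.88 of all members. After scaling 1 was lower and 7 were higher, against 11.0% and 9.31%. MiR-9-5p (-0.20), miR-9-3p (-0.13), miR-124-3p (0.41) and miR-124-5p (0.30) stayed within 2-fold in RPM, and both arms of miR-124 were higher after scaling. The 2 loci of miR-7a-5p could be told apart by their 3p arms. MiR-7a-2-3p, from an intergenic hairpin on chromosome 7, went from 57.0 to 11.9 RPM (-2.17). MiR-7a-1-3p, from an intron of Hnrnpk on chromosome 13 and picked after its values were seen, went from 61.9 to 76.3 RPM (0.30).

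Several abundant families are given next with their calls in RPM, where 45.0% of all members were lower and 2.90% higher. The 9 miR-181 members, known from ganglion and amacrine cells of the inner retina, had 2 lower and none higher, and miR-181a-5p was at 49016 and 68813 RPM (0.49). None of 11 miR-30 members was called, with miR-30d-5p at -0.07 and miR-30c-5p at -0.13. MiR-26a-5p was at 87131 and 66696 RPM (-0.39), and 1 of the 5 members of its family, miR-26a-2-3p, was lower. MiR-148a-3p was at 27983 and 19358 RPM (-0.53). After scaling, these abundant 5p and 3p forms all lay above 0, between 0.49 and 1.51. The families of miR-125, miR-99 and miR-10 were split, with 4 of 12 lower and 1 higher. Within the seed ACCCGUA miR-99a-5p was higher, miR-100-5p was at 0.09 and miR-99b-5p was at -0.90. MiR-10b-5p, which has another seed, was lower with -2.44. The miR-29 family, at no more than 49.6 RPM for any member in either library, had miR-29b-3p at -1.36 and miR-29a-3p at 0.64.

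MiRNAs known from tissues next to the retina were examined next. MiR-204-5p and miR-211-5p, known from the pigment epithelium and encoded in introns of Trpm3 and Trpm1, went from 14662 to 6967 RPM (-1.07) and from 549.7 to 259 RPM (-1.08). All 3 members of that list were lower in RPM and none after scaling. Of the 7 lens and surface epithelium members 5 were lower in both scalings, against 45.0% of all members in RPM and 11.0% after scaling. MiR-200a-3p had 125 and 14 reads (-2.51), miR-200b-3p 151 and 23 (-2.34) and miR-200c-3p 198 and 43 (-2.07). MiR-203-3p, of skin, was within 2-fold at -0.75, and miR-184-3p, of cornea and lens, was at 101 and 119 RPM (0.24). The erythroid miR-451a went from 520 to 149 reads (-1.87), while miR-486a-5p, whose reads equal those of miR-486b-5p, had 1311 at both ages. Whether these reads came from the retina or from neighbouring tissue was not tested.

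The balance of the 2 arms of a hairpin does not depend on the library total. Among 140 hairpins whose arms each had at least 100 reads over both libraries, the log2 ratio of 5p to 3p reads changed by a median of 0.23, with 5% of hairpins below -0.89 and 5% above 1.09. It rose by more than 1 for 8 hairpins and fell by more than 1 for 7. The largest rises were in miR-195a, with 55.6% of reads from the 5p arm at P1 and 80.7% at P7 (change 1.74, counting SE 0.11), and in miR-667 (1.70, counting SE 0.34), miR-181d (1.64), miR-96 (1.58) and miR-744 (1.28). The largest falls were in miR-25 (-1.46, counting SE 0.09), miR-361 (-1.24), miR-503 (-1.24), miR-199b (-1.18), whose 3p reads equal those of miR-199a-3p, and miR-338 (-1.10). For miR-96 and miR-25 the dominant arm gained further on the other, from 99.1% to 99.7% of the miR-96 reads as 5p and down from 1.27% to 0.465% of the miR-25 reads as 5p. The arm with more reads changed for 2 hairpins, miR-350 and miR-181c, named after their values were seen. MiR-181c had 45.0% of its reads as 5p at P1 and 66.4% at P7, and miR-350 had 51.3% and 33.8%. Calls of single arms, unlike the balance, do depend on the library total. In RPM, 53 of these 140 hairpins had both arms lower, 3 had both higher and none had arms called in opposite directions. Of all members, 45.0% were lower and 2.90% higher in RPM.

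**Figure D5:**
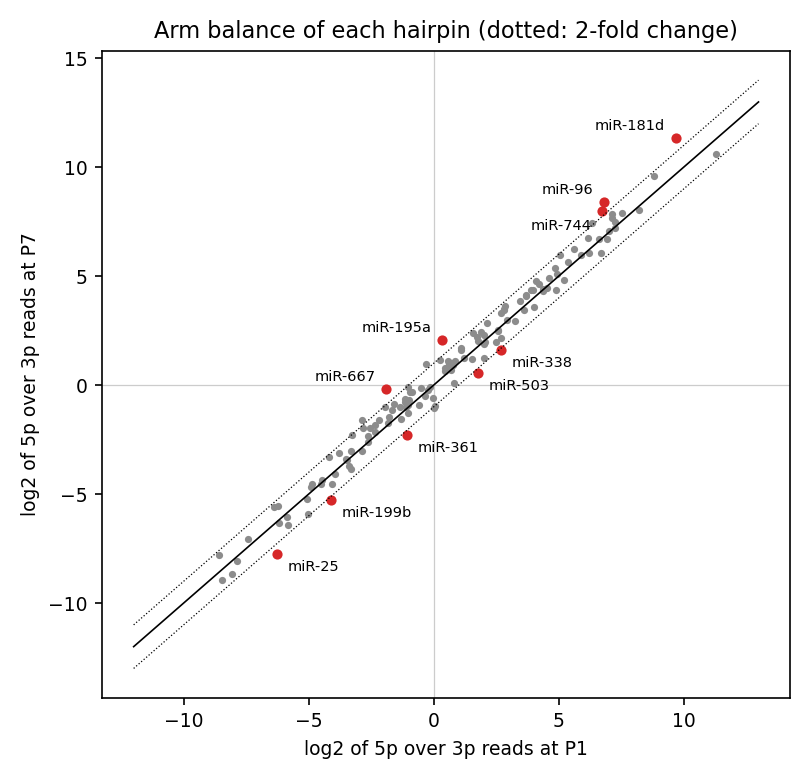
Log2 ratio of 5p to 3p reads at P7 (vertical axis) against that at P1 (horizontal axis) for 140 hairpins, 1 point each. Most points lie within the dotted lines, a 2-fold change of the ratio, and the 10 named hairpins in red changed most, from -1.46 for miR-25 to 1.74 for miR-195a.

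Base composition was compared as a description over the 545 members with a sequence. Of the 88 miRNAs with more than 60% G and C, 55.7% were lower in RPM, against 35.4% of the 99 with at most 40%. The medians were -1.04 and -0.68. Members ending in G had a median of -0.98 and those ending in C or U medians of -0.73. Among all members named by arm, the 290 from 5p arms and the 314 from 3p arms had medians of -0.83 and -0.90. The part of base composition in the results was not tested.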

How the data were processed

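Retinal miRNAs were measured by small RNA sequencing of 1 pooled library at P1 and 1 at P7, and ages were taken from the labels. The authors removed adaptor sequence and low-quality reads from the 50-nt data and aligned the rest to mm10, with HISAT2 according to the study's methods, while the submitters' processing notes list FastQC and BWA. The counting rule, the miRNA annotation and the versions are not given in the sources used here. The deposited counts are reads per mature miRNA without normalization. The deposited RPM values equal each count divided by the library's miRNA total, to within 0.0192 RPM, so they are shares and a rise of abundant miRNAs lowers all others.

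The log2 change of RPM + 1 (pseudocount 1 RPM) was computed for every miRNA that averaged at least 1 RPM, in RPM and after median-of-ratios scaling over all 655. Beyond 2-fold was called. Intervals are exact binomial (95%). A floor of 3 reads is 0.263 RPM at P1 and 0.235 RPM at P7. No test was made, since each age has 1 library. Hairpin positions and host genes are from GENCODE vM21 (GRCm38), mature sequences from RefSeq.

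Named miRNAs are the 10 most abundant of each library, the 10 largest rises and falls over all members and among those with a mean of at least 100 RPM, the 4 most abundant and the most changed of each list, 5 hairpins with the largest arm change each way, and seed groups and hairpin clusters that moved as 1 or had the most extreme medians. The comparison, its members and the lists were chosen with earlier results of these data known. The steps were tested on simulated data. TMM factors came from edgeR 4.0.16 in R 4.3.3, and all else from Python 3.11.15 with pandas 2.3.3, numpy 2.4.6 and scipy 1.17.1, plotted with matplotlib 3.10.9.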

Additional observations from a re-analysis of the deposited data

How the results depend on the processing

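The count of miRNAs lower and higher at P7, 295 and 19 in RPM, depended on the library total. It was 72 and 61 after median-of-ratios scaling, 76 and 60 after TMM scaling, 160 and 42 with a total that leaves out the 12 miRNAs among the 10 most abundant of either library, and 189 and 36 with a total that leaves out the sensory cluster. The median change, -0.88 in RPM, was then 0, -0.038, -0.42 and -0.56, and it was -1.01 and -0.62 with pseudocounts of 0.1 and 5 RPM and -0.36 with no abundance filter (1249 miRNAs). Fold criteria of 4 and 1.5 gave 56 and 440 lower and 6 and 38 higher. The other alternatives for the counts (pseudocounts, no filter, a mean of at least 10 RPM, an interval that leaves out no change) stayed within 1.5 times. Of 129 named miRNAs, 39 changed sign under a scaling, and 2 of these were called lower in RPM, miR-199b-3p with 0.0056 and miR-370-3p with 0.014 after median-of-ratios scaling. No paired analysis was possible because only 1 library per age was analysed. The variation between animals, litters and library preparations cannot be estimated from these libraries, and the depth limits miRNAs near 1 RPM to about 11.4 reads.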
